A study of Mus musculus with 5 samples.

Results

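The genes described here are 10 members of bone morphogenetic protein (BMP) signalling, measured in lymphatic endothelial cells (LECs) of mouse lymph nodes. They are the ligand genes Bmp2, Bmp4 and Bmp6, the receptor genes Bmpr1a, Bmpr2 and Acvrl1, the extracellular regulator Bmper, the inhibitory SMAD gene Smad6, and the target genes Id1 and Id3. They were chosen by name from known pathway membership, at a time when earlier results of these data were known. Of the 10, 10 were found among the 27843 genes of the count table. All 10 passed the filter on low counts, which left 15874 genes to test.

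LECs were sorted from lymph nodes as cells without CD45 and TER119 and with CD31 and podoplanin, and their polyA RNA was sequenced. There were 3 control libraries, from mice with a floxed Rankl gene on both alleles (Rankl flox/flox), and 2 knockout libraries, from mice that carried Ccl19 Cre on the same Rankl flox/flox genotype. Both groups were 8 weeks old on a C57BL/6 background, and the question was which genes of LECs are regulated by the cytokine RANKL from stromal cells. Cre driven by Ccl19 acts in stromal cells that express Ccl19, so the deletion is not placed in the LECs themselves. The labels call the control animals littermates. They leave out the number of animals per library and whether the libraries came from separate animals, so p-values measure the spread between these 5 libraries.

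BMPs are secreted ligands that bind pairs of type I and type II serine/threonine kinase receptors. The type I receptor then phosphorylates SMAD1, SMAD5 and SMAD9, which enter the nucleus with SMAD4 and switch on target genes such as the Id genes and Smad6, and SMAD6 in turn restrains the receptors. In endothelium the type I receptor ALK1, the product of Acvrl1, works with BMPR2 and the co-receptor endoglin and is known for binding BMP9, the product of Gdf2, with high affinity. BMP signals through ALK1 are known to lower Prox1, the transcription factor of lymphatic fate, in cultured LECs.

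Library totals were 52839375 to 70171307 counts, so that 1 CPM (reads scaled to library size and composition) stood for 51.96 to 71.01 reads. Markers of LECs were abundant, with Prox1 at 1459 ± 103 CPM over the controls (SD, n = 3) against 868 ± 22.9 CPM over the knockouts (SD, n = 2). Pecam1, which encodes CD31, stood at 1330 ± 8.43 and 1329 ± 25.4 CPM, Pdpn, which encodes podoplanin, at 96.5 ± 7.74 and 112 ± 17.2 CPM, and Ptprc, which encodes CD45, at 2.46 ± 0.294 and 2.64 ± 0.351 CPM. Tnfsf11, the gene of RANKL, had 27, 13 and 9 reads in controls 1, 2 and 3 and 9 and 0 reads in knockouts 1 and 2, which does not check a deletion made in other cells. Over all tested genes, 7.24% passed an adjusted p of 0.05 between knockout and control in the edgeR quasi-likelihood test, with p-values adjusted by Benjamini-Hochberg: 516 genes (3.25%) were higher and 634 (3.99%) lower. With an offset for gene length and GC content the split was 408 higher and 330 lower.

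Of the 10 BMP members, 2 rose in knockout, 0 fell and 8 did not pass, a share of 20% beside 7.24% of all tested genes (3.25% higher and 3.99% lower). The 2 were Acvrl1 and Bmpr2. In 4 members both knockout libraries lay above all controls (Acvrl1, Bmpr2, Id1 and Smad6), in 1 they lay below (Bmp2), and in 5 the groups overlapped; of all tested genes, 22.8% lay above, 22.5% below and 45.4% either way. The median log2 fold change, knockout minus control, was 0.44 over the 10 members and 0.00 over all tested genes. In pooled sorted cells, fewer cells of a type and less RNA per cell cannot be told apart.

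**Figure D1:**
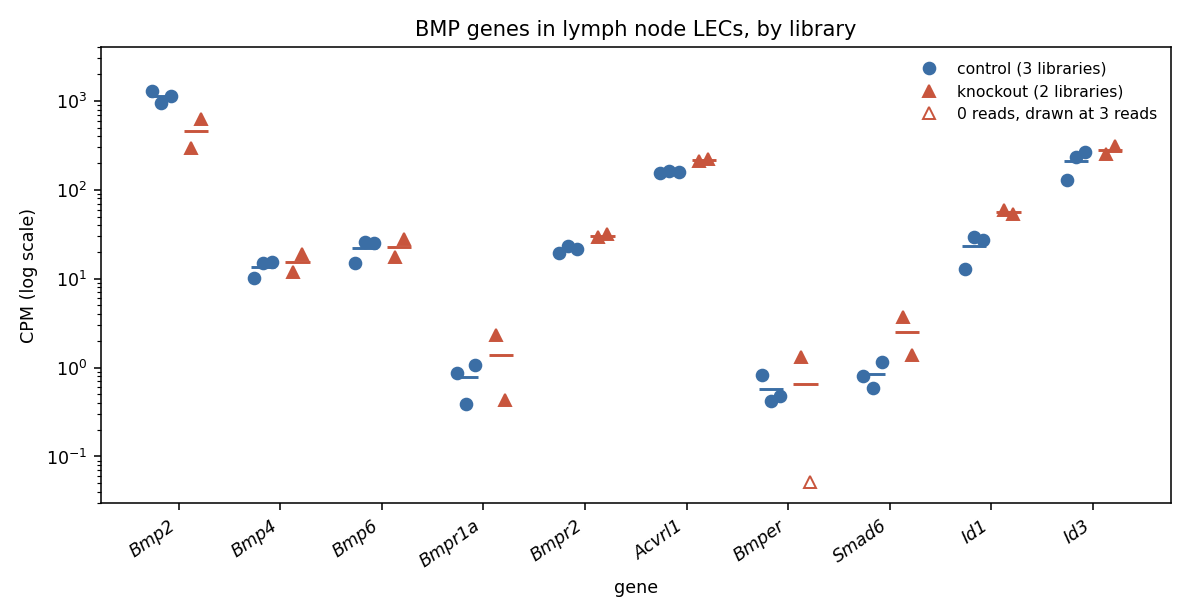
CPM (vertical axis, log scale) of the 10 BMP genes, with 1 point per library (circles, 3 controls; triangles, 2 knockouts) and a bar at each group mean; the open triangle marks 0 reads and is drawn at the level of 3 reads. Knockout libraries lie above all controls for Bmpr2, Acvrl1, Smad6 and Id1 and below them for Bmp2, and the groups overlap for the other 5 genes.

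Bmp2 was by far the most abundant ligand transcript in these LECs and stood lower in knockout. Bmp2 (ENSMUSG00000027358, plus strand of chromosome 2, 133552159 to 133562885 on mm10) had 90737, 58922 and 59317 reads in controls 1, 2 and 3, or 1278, 944 and 1142 CPM. It had 16239 and 36404 reads in knockouts 1 and 2, or 297 and 626 CPM. Both knockout values were below every control, and the knockouts differed from each other by 2.11 times, against 1.35 times between the highest and lowest control. The fitted knockout level was 41.1% of control, a log2 fold change of -1.28 ± 0.31 (SE), and it missed the threshold narrowly (edgeR, Benjamini-Hochberg adjusted p = 0.056). Bmp2 passed with DESeq2 (adjusted p = 0.00012) and with limma-voom (adjusted p = 0.043). It also passed without knockout 1 (log2 fold change -0.85, adjusted p = 0.036) and without knockout 2 (-1.92, adjusted p = 0.0044) in the edgeR test, where the remaining knockout library is assumed to vary like the controls. Over its alternatives the adjusted p ran from 0.00012 to 0.20.

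Bmp4 and Bmp6, which encode ligands of different BMP subgroups, were present at far lower levels than Bmp2, with no difference that passed. Bmp4 (ENSMUSG00000021835, minus strand of chromosome 14, 46383520 to 46390669) stood at 10.1, 15.2 and 15.5 CPM in controls 1, 2 and 3 and at 11.9 and 18.7 CPM in knockouts 1 and 2. Bmp6 (ENSMUSG00000039004, plus strand of chromosome 13, 38345107 to 38500302) stood at 14.9, 26.0 and 25.1 CPM in the same controls and at 17.7 and 28.2 CPM in the knockouts. For both genes the lowest control was control 1, the higher knockout was knockout 2, and the groups overlapped. The log2 fold change was 0.17 ± 0.26 (SE) for Bmp4 and 0.06 ± 0.28 for Bmp6. Each turned negative without control 1 (-0.0015 for Bmp4 and -0.15 for Bmp6) and without knockout 2 (-0.20 and -0.31).

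Among the other ligand genes of a wider list of 67 BMP pathway genes, Bmp7 fell. Bmp7, a ligand of the same subgroup as Bmp6, went from 12.9, 10.1 and 10.6 CPM in controls 1, 2 and 3 to 1.74 and 3.46 CPM in knockouts 1 and 2 (log2 fold change -2.11 ± 0.31, SE, edgeR, Benjamini-Hochberg adjusted p = 0.019). Both knockout values were far below the lowest control. Bmp7 lost its call without each control library, at log2 fold changes of -1.99, -2.18 and -2.15 without control 1, 2 and 3, and was at -1.70 without knockout 1 and -2.69 without knockout 2. Bmp8a stood at 75.8 ± 15.5 CPM over the controls (SD, n = 3) against 50.8 ± 21.8 CPM over the knockouts (SD, n = 2), with a log2 fold change of -0.58 ± 0.28 that did not pass. Bmp8a has a close paralog, Bmp8b, and the counting of reads shared by the pair is not stated, which leaves its level uncertain. Gdf2 was named after its values were seen, because its product is a ligand of ALK1. Gdf2 had 12, 16 and 14 reads in controls 1, 2 and 3 and 1 and 0 reads in knockouts 1 and 2. The ratio of knockout to control reads, scaled by library size, was 0.0391 with an exact 95% interval of 0.000967 to 0.23 that covers counting error only, and the gene did not pass (edgeR, Benjamini-Hochberg adjusted p = 0.052). Of the 9 tested ligand genes, members included, 0 rose and 1 fell, and knockout libraries lay below all controls in 4 and above in 0. The median log2 fold change of -0.82 is that of Gdf6 (SE 1.23) and carries no clear direction. Gdf6 had 7, 24 and 10 reads in controls 1, 2 and 3 and 14 and 0 reads in knockouts 1 and 2. The 1 call is a share of 11.1% beside 7.24% of all tested genes, and 22.5% of all tested genes lay below all controls.

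Summed over the 12 ligand genes with a row in the table, the level in CPM per kb of exon was 402, 308 and 377 in controls 1, 2 and 3 and 109 and 220 in knockouts 1 and 2. Bmp2 made up 89.4%, 86.2% and 85.3% of this sum in the controls and 76.8% and 79.9% in the knockouts. The mean share was 87.0% ± 2.15 in controls (SD, n = 3) and 78.4% ± 2.21 in knockouts (SD, n = 2). The difference of -8.61 percentage points gave p = 0.1 in a two-sided exact permutation test, which is the smallest p that the 10 arrangements of 3 and 2 libraries allow. All ligands other than Bmp2 summed to 42.7, 42.4 and 55.4 CPM per kb in the controls and to 25.2 and 44.2 CPM per kb in the knockouts, so the groups overlapped there.

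**Figure D2:**
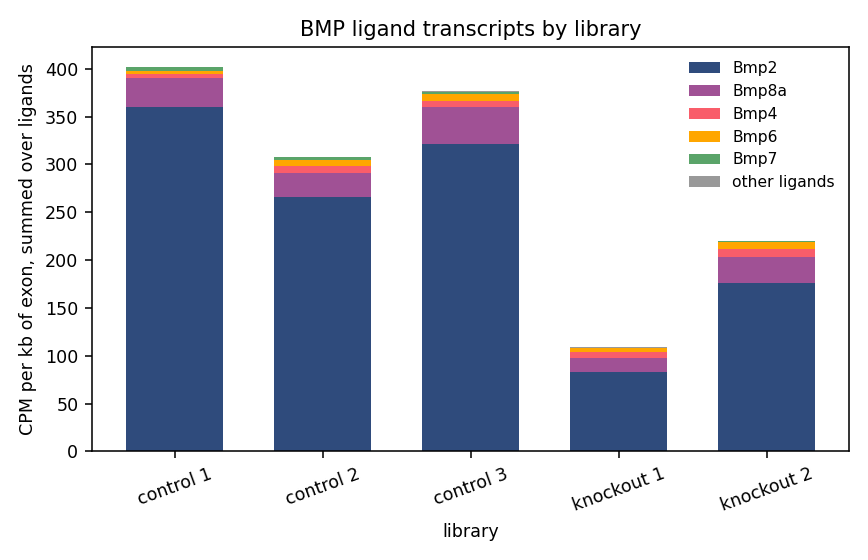
Level of BMP ligand transcripts in each library (horizontal axis), stacked by gene in CPM per kb of exon (vertical axis, from 0). Bmp2 fills most of every bar, and the summed level is 308 to 402 in the 3 controls against 109 and 220 in knockout 1 and knockout 2.

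Acvrl1, the gene of the type I receptor ALK1, rose in knockout. Acvrl1 (ENSMUSG00000000530, plus strand of chromosome 15, 101128522 to 101145336) had 10854, 10267 and 8137 reads in controls 1, 2 and 3, or 153, 165 and 157 CPM. It had 11446 and 12940 reads in knockouts 1 and 2, or 209 and 223 CPM. The controls lay within 1.08 times of each other and the knockouts within 1.06 times, and the groups were apart. The rise was 1.37-fold, a log2 fold change of 0.45 ± 0.08 (SE, edgeR, Benjamini-Hochberg adjusted p = 0.03). Its log2 fold change stayed between 0.40 and 0.49 over 13 alternatives. The call was lost with the length and GC offset (adjusted p = 0.061) and without control 1, 2 and 3 (adjusted p = 0.09, 0.09 and 0.14).

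Bmpr2, the gene of the type II receptor for BMPs, rose by a similar amount. Bmpr2 (ENSMUSG00000067336, plus strand of chromosome 1, 59763400 to 59879014) stood at 19.6, 23.1 and 21.8 CPM in controls 1, 2 and 3 and at 29.4 and 31.4 CPM in knockouts 1 and 2, with no overlap. The rise was 1.41-fold, a log2 fold change of 0.50 ± 0.11 (SE, edgeR, Benjamini-Hochberg adjusted p = 0.046). With the length and GC offset it was 0.71 and kept its call (adjusted p = 0.04). Bmpr2 lost its call without control 1, 2 and 3 (log2 fold changes 0.44, 0.55 and 0.51, adjusted p = 0.11, 0.098 and 0.15) and without knockout 2 (0.44, adjusted p = 0.078).

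Bmpr1a, which encodes the type I receptor ALK3, was at a low level. Bmpr1a (ENSMUSG00000021796, minus strand of chromosome 14, 34410734 to 34503341) had 62, 24 and 56 reads in controls 1, 2 and 3 and 127 and 25 reads in knockouts 1 and 2. Knockout 1 was the highest library and knockout 2 lay among the controls. The log2 fold change of 0.82 ± 0.73 (SE) did not pass, and it was -0.85 without knockout 1, so that its direction rested on that library.

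Of the 10 tested receptor and co-receptor genes in the wider list, 2 rose (Acvrl1 and Bmpr2) and 0 fell, with a median log2 fold change of 0.42. That is a share of 20% beside 7.24% of all tested genes. Both are members, and of the 7 tested genes of this role that are no members 0 passed, with a median of 0.28. Eng, which encodes endoglin, the co-receptor of ALK1, was abundant at 540 ± 27.9 CPM over the controls (SD, n = 3) against 480 ± 32 CPM over the knockouts (SD, n = 2). Its log2 fold change of -0.17 ± 0.10 did not pass, although both knockouts lay below all controls. Acvr1, the gene of the type I receptor ALK2, stood at 94 ± 5.5 and 80.3 ± 23.5 CPM, with a log2 fold change of -0.23 ± 0.17 that did not pass and was -0.57 without knockout 2, where it passed (edgeR, Benjamini-Hochberg adjusted p = 0.023).

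Some markers of blood endothelium, which also carries ALK1 and BMPR2, rose in knockout. Of 14 such markers 7 rose, 1 fell and 6 did not pass, a share of 57.1% passing beside 7.24% of all tested genes. The log2 fold change was positive in 11 of the 14, with a median of 1.14. Sox17 went from 0.562 ± 0.334 to 4.37 ± 0.477 CPM, Cd34 from 18.8 ± 5.46 to 71.9 ± 12.2 CPM and Gpihbp1 from 6.92 ± 0.25 to 17.1 ± 1.08 CPM, while Kdr, which LECs express as well, fell from 1910 ± 117 to 1178 ± 35.3 CPM (SD, n = 3 and n = 2). The other 4 that rose were Ly6c1, Ly6a, Aqp7 and Emcn. The summed level of the 14 overlapped between the groups, at 5439 to 5883 CPM in controls and 5582 and 6299 CPM in knockouts. Of the 14, 0 were at 0 reads in all libraries, and Apln had 0 reads in knockout 2. The part of these cells in the rise of Acvrl1 and Bmpr2, or in the levels of Smad6 and Id1, was not tested. Of the other marker lists, 3 of 10 tested pericyte and smooth muscle genes rose (Acta2, Kcnj8 and Mcam) and 0 fell, and 2 of 8 high endothelial venule genes rose (Ackr1 and Ubd) and 0 fell. Of 13 LEC identity genes, 2 rose (Ccl21a and Mmrn1) and 3 fell (Prox1, Stab2 and Itga9). Of 7 macrophage genes 1 rose (Adgre1) and 2 fell (Csf1r and Mpeg1), of 5 platelet and erythroid genes 0 rose and 2 fell (Pf4 and Gp1ba), and 0 of 8 lymphocyte genes rose or fell. In the order named, pericyte to lymphocyte, the shares passing were 30%, 25%, 38.5%, 42.9%, 40% and 0%, beside 7.24% of all tested genes.

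Bmper encodes a secreted protein that binds BMPs and, depending on its level, blocks or aids their signal. Bmper (ENSMUSG00000031963, plus strand of chromosome 9, 23223076 to 23485200) had 59, 26 and 25 reads in controls 1, 2 and 3, 72 reads in knockout 1 and 0 reads in knockout 2, where a count of 0 allows a level of up to 0.0516 CPM. The 2 knockouts were the highest and the lowest of the 5 libraries. The fitted log2 fold change of 0.18 ± 1.26 (SE) carries no direction, and a difference was not detectable at this depth.

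Epithelial markers summed to 18.1 CPM in knockout 1, 7.49 CPM in control 1 and 6.40 CPM in knockout 2. In controls 2 and 3 they summed to 1.59 and 2.62 CPM. Bmper had its most reads in knockout 1 and control 1, but 0 reads in knockout 2. Of 5 epithelial markers 1 rose (Epcam) and 0 fell, a share of 20% beside 7.24% of all tested genes. Epcam made up 5.09 CPM of the sum in knockout 2, where Krt5 and Cdh1 had 0 reads. Markers of fibroblastic reticular and mesenchymal cells, which are a source of BMPs and their antagonists in other tissues, summed to 1107 CPM in knockout 1 and to 363 to 519 CPM in the other libraries; of 12 such markers 0 rose and 0 fell, and Grem1 had 0 reads in knockout 2. Their part in the Bmper, Bmpr1a and Smad6 reads of knockout 1 was not tested.

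Of the 14 tested extracellular regulators, Bmper included, 2 rose and 1 fell, with a median log2 fold change of 0.23. Nbl1, which encodes a secreted BMP antagonist of the DAN family, rose from 5.76, 6.91 and 5.58 CPM in controls 1, 2 and 3 to 29.5 and 16.5 CPM in knockouts 1 and 2 (log2 fold change 1.92 ± 0.25, SE, edgeR, Benjamini-Hochberg adjusted p = 0.015). Sostdc1, which encodes an antagonist of BMP and Wnt signals, rose from 1.29 ± 0.396 CPM (SD, n = 3) to 4.46 ± 0.178 CPM (SD, n = 2), with a log2 fold change of 1.78 ± 0.31 (SE). Chrdl1, a chordin-like antagonist, fell from 7 ± 0.4 to 4.07 ± 0.177 CPM, with a log2 fold change of -0.78 ± 0.16 (SE). The knockout libraries of these 3 genes did not overlap the controls, which was also the case in 45.4% of all tested genes. All 3 lost their call without each control library, and Chrdl1 also with the length and GC offset and without knockout 1. The genes of this role with the highest level per exon length, Fstl1 (587 ± 57.6 and 595 ± 1.6 CPM, log2 fold change 0.02 ± 0.11) and Twsg1 (186 ± 13.9 and 225 ± 30.8 CPM, 0.28 ± 0.12), did not pass.

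Id1, a target gene whose product blocks basic helix-loop-helix transcription factors, stood higher in knockout. Id1 (ENSMUSG00000042745, plus strand of chromosome 2, 152736251 to 152737410) had 923, 1835 and 1397 reads in controls 1, 2 and 3, or 13.0, 29.4 and 26.9 CPM, and 3258 and 3078 reads in knockouts 1 and 2, or 59.5 and 52.9 CPM. Both knockouts lay above all controls, and control 1 lay 2.26 times below the highest control. The fitted level was 2.44 times control, a log2 fold change of 1.28 ± 0.31 (SE), which missed the threshold narrowly (edgeR, Benjamini-Hochberg adjusted p = 0.055). Id1 passed with DESeq2 (adjusted p = 0.00062), with limma-voom (adjusted p = 0.044), and without control 1 (log2 fold change 1.00, adjusted p = 0.034). Its adjusted p over the alternatives ran from 0.00062 to 0.22, and the log2 fold change from 1.00 to 1.52.

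Id3, which encodes a related inhibitor, was more abundant and showed no difference that passed. Id3 (ENSMUSG00000007872, plus strand of chromosome 4, 136143497 to 136145755) stood at 130, 232 and 265 CPM in controls 1, 2 and 3 and at 253 and 313 CPM in knockouts 1 and 2. Control 1 was again the lowest library, and knockout 1 lay below control 3. The log2 fold change was 0.44 ± 0.28 (SE), and 0.19 without control 1.

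Smad6, the gene of the inhibitory SMAD that BMP signals switch on, was at a low level in all libraries. Smad6 (ENSMUSG00000036867, minus strand of chromosome 9, 63953076 to 64022059) had 57, 37 and 60 reads in controls 1, 2 and 3 and 201 and 81 reads in knockouts 1 and 2, or 0.803, 0.593 and 1.16 CPM against 3.67 and 1.39 CPM. Both knockouts lay above the controls, knockout 2 by little. The log2 fold change of 1.58 ± 0.49 (SE) did not pass (edgeR, Benjamini-Hochberg adjusted p = 0.096). It was 0.71 without knockout 1 and 2.11 without knockout 2, where it passed (adjusted p = 0.022), and it passed with DESeq2 (adjusted p = 0.025).

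Of the 10 tested target genes of the wider list, 2 rose and 0 fell, a share of 20% beside 7.24% of all tested genes. A positive log2 fold change was found in 9, of which Msx1 (0.03) and Id2 (0.06) were near 0. The median of 0.42 lies between Id3 (0.44), which did not pass, and Hey2 (0.41 ± 1.31, SE). Hey2 had 23 and 0 reads in knockouts 1 and 2. Atoh8, a transcription factor gene that ALK1 signals induce in endothelium, rose from 1.65, 1.43 and 1.41 CPM in controls 1, 2 and 3 to 5.50 and 4.20 CPM in knockouts 1 and 2 (log2 fold change 1.70 ± 0.23, SE, edgeR, Benjamini-Hochberg adjusted p = 0.017). Hey1, a target of Notch as well as of BMP signals, rose from 5.91 ± 0.686 CPM (SD, n = 3) to 9.78 ± 0.922 CPM (SD, n = 2), with a log2 fold change of 0.73 ± 0.16 (SE). For both genes the knockouts lay above all controls. Atoh8 did not pass when control 2 or control 3 was left out, and Hey1 lost it with the length and GC offset, without knockout 2 and without each control. Id2, the most abundant target that is no member, stood at 92.4 ± 21.4 and 96.1 ± 18 CPM, with a log2 fold change of 0.06 ± 0.21 that did not pass and turned negative without control 2 and without knockout 2.

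Of the 12 tested SMAD and intracellular regulator genes, 2 rose and 0 fell, with a median log2 fold change of 0.05. That share of 16.7% stands beside 7.24% of all tested genes. Fkbp1a, whose product binds type I receptors of the family and holds them inactive, rose from 526 ± 14.5 CPM (SD, n = 3) to 712 ± 22.9 CPM (SD, n = 2), with a log2 fold change of 0.44 ± 0.09 (SE). Fkbp1a has 3 annotated pseudogenes, and how shared reads were counted is not given. Ski, a co-repressor of SMAD complexes, rose from 109 ± 18 to 177 ± 26 CPM, with a log2 fold change of 0.69 ± 0.16. Both lost their call without each control library, Fkbp1a also with the length and GC offset and without knockout 2, and Ski also with library totals alone and without knockout 1. Smad4, the shared partner of the receptor-activated SMADs, stood at 396 ± 29.7 and 302 ± 1.96 CPM and did not pass (log2 fold change -0.39 ± 0.10, edgeR, Benjamini-Hochberg adjusted p = 0.062).

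The wider list, like the members, was chosen with earlier results of these data known. Over the whole wider list, 64 of 67 genes had a row in the table and 55 were tested. Of the 55 tested genes 8 rose and 2 fell, and 45 did not pass, with a median log2 fold change of 0.07. That is 18.2% passing beside 7.24% of all tested genes. Leaving out the members, 6 rose and 2 fell of 45 tested. Without control 1, 2 of the wider list passed; without control 2 and without control 3, 0 passed in the edgeR test (23 and 22 at an unadjusted p under 0.05), while DESeq2 on all libraries called 21. The same fits called 1.74%, 1.12% and 0.0705% of all genes tested without control 1, 2 and 3, and DESeq2 called 17.1%.

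**Figure D3:**
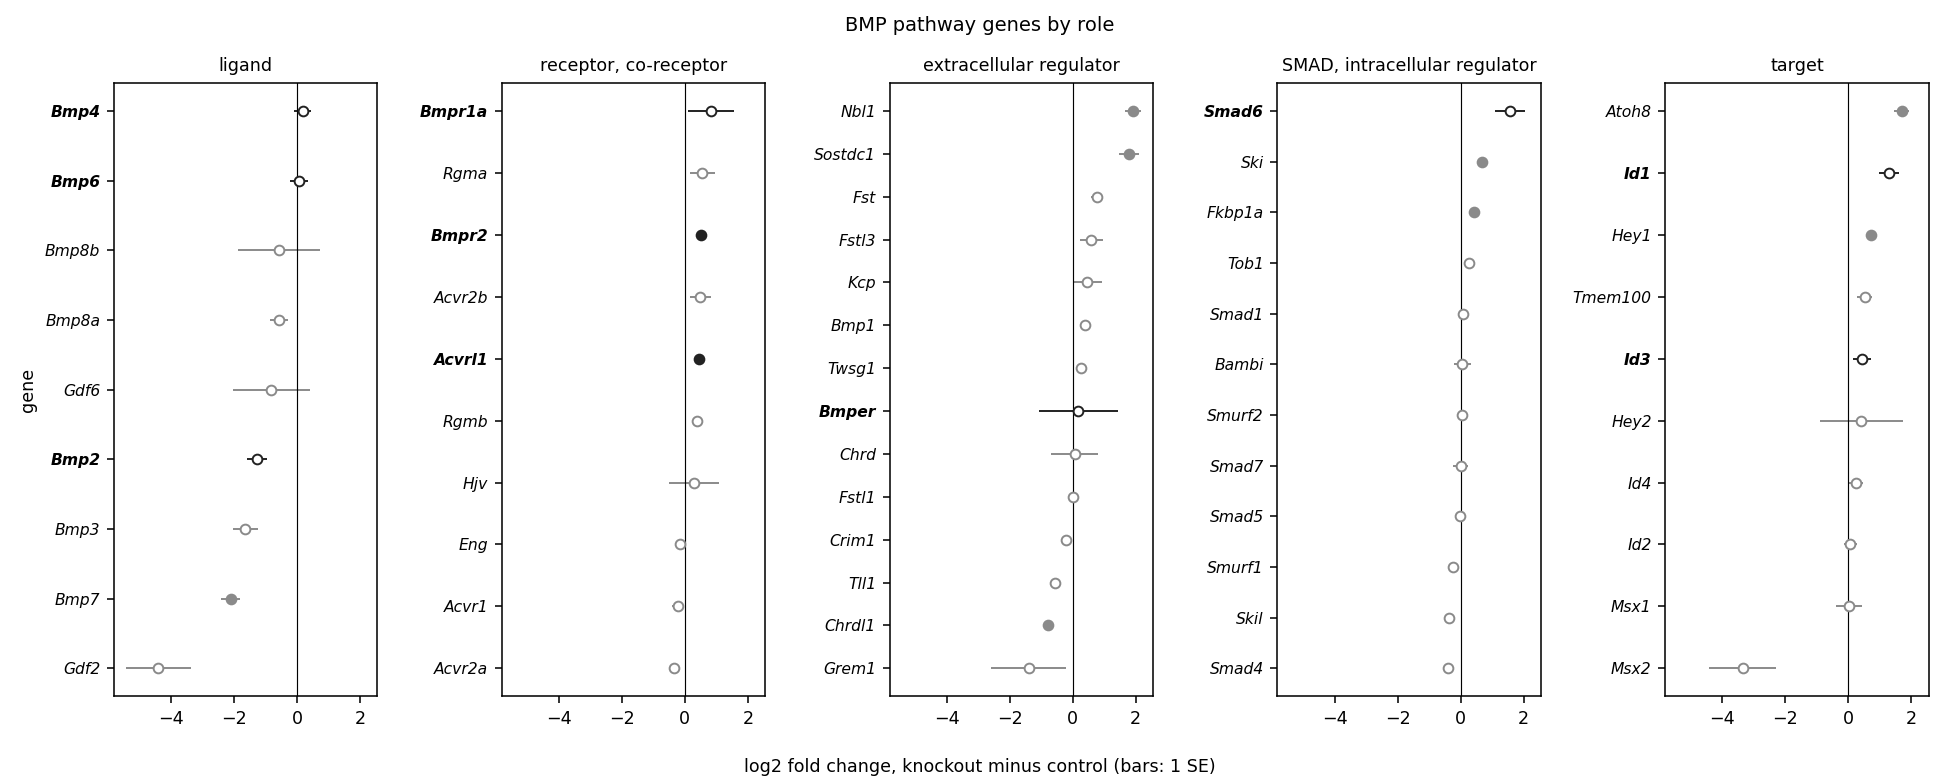
Log2 fold change, knockout minus control (horizontal axis), of the 55 tested BMP pathway genes in 5 panels by role, with bars of 1 SE. Names in bold are the 10 members; filled points passed an adjusted p of 0.05 over all genes, and 8 of the 10 filled points lie right of 0. The low points of Gdf2 and Msx2 rest on 1 and 2 knockout reads and show no measured size.

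The promoters of Smad6 and Atoh8 are shown as examples. Both are BMP target genes whose knockout libraries lay above all controls and whose window holds no annotated exon of the gene. The knockout libraries of the targets Hey1 and Tmem100 also lay above all controls, but their promoter windows are not described here. The sequences are the 250 bases before the transcription start, from RefSeq on GRCm38.p6, read 5′ to 3′ on the strand of the gene. Capitals mark matches on either strand to GGCGCC or GGAGCC, GC-rich motifs bound by BMP-activated SMADs, or to GTCTG, which holds the SMAD box; the matches do not overlap.
Smad6 promoter, chr9:64022060-64022309, minus strand: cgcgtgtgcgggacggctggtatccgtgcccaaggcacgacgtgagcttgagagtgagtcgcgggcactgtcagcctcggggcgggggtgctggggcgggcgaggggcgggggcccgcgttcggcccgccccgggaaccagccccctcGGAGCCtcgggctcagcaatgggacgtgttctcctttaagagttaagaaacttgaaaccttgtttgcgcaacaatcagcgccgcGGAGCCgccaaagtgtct
Atoh8 promoter, chr6:72235578-72235827, minus strand: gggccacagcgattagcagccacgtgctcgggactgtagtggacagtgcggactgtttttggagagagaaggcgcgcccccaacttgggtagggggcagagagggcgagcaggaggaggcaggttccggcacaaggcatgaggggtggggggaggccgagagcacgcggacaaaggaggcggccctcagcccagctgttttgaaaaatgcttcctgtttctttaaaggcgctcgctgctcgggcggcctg

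The Smad6 window held GGAGCC at 2 places, 102 to 97 and 18 to 13 bases before the start, and neither of the other motifs. The Atoh8 window held 0 matches to the 3 motifs. Of all 32851 RefSeq promoter windows of this length, 26% held GGAGCC, 9.59% held GGCGCC and 42.2% held GTCTG. Of the 10 members, 7 had a promoter entry. Each of the 7 windows held at least 1 of the 3 motifs: GGCGCC in those of Bmpr2 and Bmpr1a, GGAGCC in those of Smad6, Bmp4 and Bmper, GTCTG in that of Bmp6, and both GGAGCC and GTCTG in that of Id3. The share of all windows with at least 1 of the 3 motifs was not computed, so the 7 cannot be set against it. The windows of Bmp6, Bmpr1a, Bmpr2 and Id3 overlap the annotated body of the same gene.

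Per exon length, the mean levels of the members in controls ran from 0.119 to 315 CPM per kb. Bmp2 led at 315 ± 47.2 CPM per kb (SD, n = 3), above 99.3% of the tested genes with a known exon length. Id3 (117 ± 39.3 CPM per kb), Acvrl1 (37 ± 1.4) and Id1 (19.9 ± 7.62) followed, each with a range that did not overlap that of its neighbour in this order. Bmp4 (6.04 ± 1.34) and Bmp6 (5.64 ± 1.57) overlapped each other. Below them came Bmpr2 (1.2 ± 0.0998) and Smad6 (0.265 ± 0.0886), whose ranges were apart from those of their neighbours. Bmpr1a (0.123 ± 0.0561) and Bmper (0.119 ± 0.0461) overlapped each other at the low end, and lay above 12% and 11.6% of the tested genes. The length is that of all annotated exons together, 17983 bases for Bmpr2 against 1160 for Id1, so the level of a gene with long unused exons is understated.

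In knockouts Bmp2 did not stand alone at the top of this order. Id3 (158 ± 23.4 CPM per kb, SD, n = 2) and Bmp2 (130 ± 65.5) overlapped at the top, and Acvrl1 (50.6 ± 2.24) and Id1 (48.5 ± 4.01) overlapped in the next places. Bmp4 (6.8 ± 2.17), Bmp6 (5.89 ± 1.89), Bmpr2 (1.69 ± 0.0822), Smad6 (0.79 ± 0.503), Bmpr1a (0.216 ± 0.21) and Bmper (0.136 ± 0.192) came in the same order as in controls.

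Leaving out a library moved the members unequally. Acvrl1, Bmpr2, Id1, Id3 and Smad6 were positive and Bmp2 was negative in each of the 5 fits that left out a library. Bmp4, Bmp6, Bmpr1a and Bmper changed sign in at least 1 of them. Without control 2 and without control 3, 0 of the 10 members passed the edgeR test (5 in each case at an unadjusted p under 0.05), while without knockout 1 the number was 4 (Bmp2, Acvrl1, Bmpr2 and, with 0 reads in the remaining knockout library, Bmper). In these 3 fits, named in the same order, 1.12%, 0.0705% and 10.4% of all tested genes passed, and 20.6%, 19.1% and 29.7% had an unadjusted p under 0.05.

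**Figure D4:**
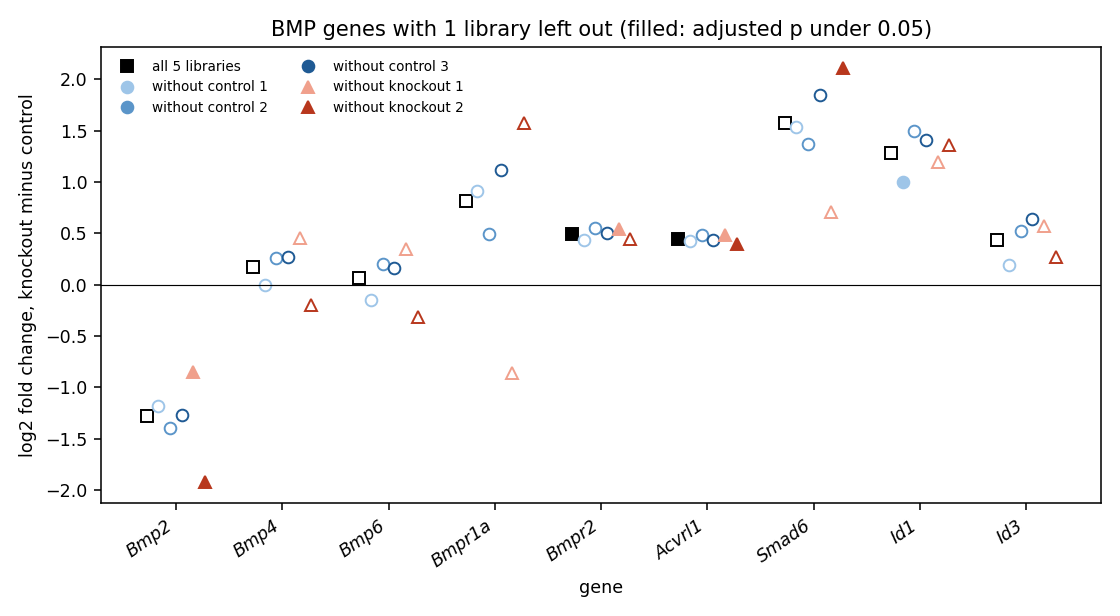
Log2 fold change, knockout minus control (vertical axis), of 9 BMP genes with all 5 libraries (squares), without 1 control (circles) and without 1 knockout (triangles); filled points passed an adjusted p of 0.05. Bmper is not drawn because knockout 2 had 0 reads. Acvrl1 stays between 0.40 and 0.49, and Bmpr1a ranges from -0.85 to 1.57.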

How the data were processed

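PolyA RNA of sorted lymph node LECs was read in 3 control and 2 knockout libraries as single 50-base reads after SMART-Seq v4 amplification and Nextera XT tagmentation, per the labels' protocols. These kits do not mark strand, so a gene and an antisense partner cannot be told apart, and amplified reads that carry no molecular identifiers do not count molecules. Of the members, Bmp4, Bmp6, Bmpr1a and Acvrl1 share 2.98% to 5.74% of their exon bases with an antisense gene. The authors deposited 1 table of raw read counts per Ensembl gene. The submitters' processing notes name TopHat2 2.0.14, Bowtie2 2.1.0, HTSeq 0.6.1, bcl2fastq 2.17.1.14 and mm10; the sources used here do not give the annotation or the treatment of multi-mapped reads.

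Of 27843 genes, 27648 matched GENCODE M21 (mm10), which gave symbols, positions and exon lengths. Counts were filtered (filterByExpr, minimum count 10), scaled by TMM and tested with edgeR 4.0.16 in R 4.3.3 (robust quasi-likelihood F test, knockout minus control), with Benjamini-Hochberg adjustment over all 15874 tested genes and a threshold of 0.05. The SE of a log2 fold change was taken as its size over the root of F. The fit was tested on simulated data. Alternatives were RLE factors, library totals, no filter, 1 CPM in 2 libraries, DESeq2 1.42.0, limma-voom (limma 3.58.1), a replicate block, a length and GC offset (loess, span 0.5) and leaving out each library. Their use for genes beyond the members, and the Bmp2 share, were added after the data were seen.

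Members, lists and alternatives were chosen with earlier results of these data known. Named besides the members were wider-list genes that passed and, in each role, the 2 of highest level per exon length, along with sort genes and marker genes that passed or were at 0 in all libraries. The marker list sums and the remaining genes named were chosen after their values were seen. In the wider list Hjv is annotated as Hfe2, and Bmp10, Bmp15 and Tll2 were not analysed here.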

Additional observations from a re-analysis of the deposited data

How the results depend on the processing

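Without TMM, with RLE factors or with no filter on low counts, 2 members passed, as in the edgeR quasi-likelihood test with all libraries. The number was 4 with a filter of 1 CPM in 2 libraries, 5 with DESeq2, 4 with limma-voom and 1 with the length and GC offset. It was 0 to 4 with a library left out. Over all genes 1150 passed, against 2720 with DESeq2, 738 with the length and GC offset; leaving out a library gave 11 to 1736. Of the wider list 10 passed, against 21 with DESeq2, and from 0 to 16 when a library was left out. With the replicate number as a block (edgeR quasi-likelihood), 0 genes passed in all, and 0 members and 0 of the wider list (2808, 6 and 19 at an unadjusted p under 0.05). Whether same-numbered libraries belong together is not known. Their deviations from the group means correlated at 0.05 for number 1 and -0.05 for number 2. With 2 knockouts, the deviations of knockout 2 mirror those of knockout 1, so these values cannot decide on pairing. The cause of these moves was not tested.

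Of 330 alternatives of 26 single values, 13 changed sign, all in genes that did not pass with all libraries. With a library left out, Bmp4 ranged from -0.20 to 0.46 (-0.0015 without control 1), Bmp6 from -0.31 to 0.35 (-0.15 without control 1), Bmpr1a from -0.85 to 1.57, Acvr1 from -0.57 to 0.038, Fstl1 from -0.048 to 0.093 and Id2 from -0.15 to 0.23 (-0.12 without control 2). Bmper ranged from -8.15 to 1.18 (-0.0068 without control 2); the lowest value stands against 0 reads and is no measured size. Bmper was at -2.48 with limma-voom and at -1.28 with the replicate block. Bmper, Bmpr1a and Smad6, at 0 to 201 reads per library, are the members most limited by depth.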

Other observations

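Control 1 stood apart from the other controls in several BMP genes. It had the lowest CPM of the 3 controls in 6 of the 10 members (Bmp4, Bmp6, Bmpr2, Acvrl1, Id1 and Id3) and the highest in Bmp2 and Bmper. The gap was small in Acvrl1 and Bmpr2, whose highest and lowest controls differed by 1.08 and 1.18 times. How often control 1 was lowest over all genes was not computed. Id1 stood at 13.0 CPM there against 29.4 and 26.9 CPM in controls 2 and 3, and Id3 at 130 against 232 and 265 CPM. In knockouts the library with the lower Bmp2 level, knockout 1, had the higher Id1 and Smad6 levels and the lower Id3 level. With 5 libraries no relation between ligand and target levels was computed.

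The antagonist Fst, which encodes follistatin and was named after its values were seen, stood at 59.5, 91.2 and 86.9 CPM in control libraries 1, 2 and 3 and at 119 and 149 CPM in knockout libraries 1 and 2. The groups did not overlap, and the log2 fold change of 0.76 ± 0.19 (SE) did not pass (edgeR, Benjamini-Hochberg adjusted p = 0.063). Bmp3, which encodes an atypical family member, stood at 5.05, 3.35 and 6.06 CPM in the controls and at 0.986 and 2.10 CPM in the knockouts, likewise without overlap and without passing (log2 fold change -1.64 ± 0.41, adjusted p = 0.058, same test).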
